A study of Mus musculus with 18 samples.

Results

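Genes of protein folding and quality control in the endoplasmic reticulum (ER) were followed in mouse pancreatic islets that carried an islet amyloid polypeptide (IAPP) transgene and in islets that carried none. The list held 37 gene names, covering ER chaperones, disulfide-bond enzymes, sensors of the unfolded protein response and components of ER-associated degradation. A gene was a member if its symbol in the deposited table equalled a listed name. Of the 54186 rows of the table, 35 were members, and the other 2 names, Ero1l and Ero1lb, are older symbols of Ero1a and Ero1b, which were present. All 35 members passed the filter on low counts and were among the 20244 genes tested.

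The libraries came from whole islets of FVB mice aged 6 weeks, with 1 library per mouse and about 165 islets per mouse. There were 6 wild-type (WT) mice, 6 mice with human IAPP (hIAPP) and 6 mice with rodent IAPP (rIAPP). Both transgenes were driven by the insulin II promoter, so that the labels describe their expression as specific to beta cells, whereas RNA was taken from all cells of the islet. The labels give no transgenic line, zygosity or sex. In every library Xist had at most 42 counts and the Y-linked gene Ddx3y at least 10003, the pattern of male mice. Rodent IAPP differs from the human peptide by proline substitutions and does not form amyloid, so the rIAPP mice carry a transgene without the aggregating sequence.

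Proteins of the secretory pathway fold in the ER with the help of lumenal chaperones of the HSP70 and HSP90 families, lectin chaperones that bind glycoproteins, and oxidoreductases that form and shuffle disulfide bonds. When unfolded protein accumulates, IRE1α (Ern1), PERK (Eif2ak3) and ATF6 start the unfolded protein response, in which spliced XBP1, cleaved ATF6 and ATF4 switch on chaperone and degradation genes. Proteins that fail to fold are carried back to the cytosol and destroyed by the proteasome, through a membrane complex built around SEL1L and the ubiquitin ligase HRD1 (Syvn1). Beta cells make large amounts of proinsulin and IAPP and depend on this machinery, and loss of WFS1 or PERK causes diabetes in humans.

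Promoters are shown because the unfolded protein response acts on many of these genes through short elements close to the start site. RefSeq windows on GRCm38.p6, 250 bases before to 50 bases after a start site, were found for 31 of the 35 members. The ER stress response element ERSE, which is CCAAT and CCACG with 9 bases of any kind between them, was searched on both strands, as were the other elements. It was present in the windows of 10 of these 31 members (32.3%) and in 39 of 32851 windows of all genes (0.119%). The first share counts genes, which had 35 windows together, and the second counts windows, those of the members included. The 10 members were Calr, Canx, Creld2, Derl3, Dnajc3, Ero1b, Hsp90b1, Hspa5, Pdia6 and Syvn1. ERSE-II, which is ATTGG and CCACG with 1 base between them, was present in the windows of Herpud1 and Dnajb11 and in 0.0365% of all windows. The letters CCACG belong to both ERSE elements. The XBP1 and ATF6 element TGACGTGG was present in Txndc5 and Txndc11 and in 0.676% of all windows. The amino acid response element TGATGCAA, read by ATF4, was present in Herpud1 and in 0.895% of all windows. Below are the 250 bases before the start site, written 5′ to 3′ with these elements in capitals, for Hspa5 and for the 3 members that were higher in hIAPP than in WT islets and held an element. Ero1b is added because it had the largest change of all members, and was chosen after its values were seen.
Hspa5 (chr2:34771840-34772089, plus strand): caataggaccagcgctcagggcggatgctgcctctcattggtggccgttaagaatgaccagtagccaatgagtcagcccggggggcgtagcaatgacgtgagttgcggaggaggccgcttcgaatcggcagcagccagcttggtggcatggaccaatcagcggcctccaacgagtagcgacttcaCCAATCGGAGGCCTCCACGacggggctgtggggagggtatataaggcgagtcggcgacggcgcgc
Herpud1 (chr8:94386179-94386428, plus strand): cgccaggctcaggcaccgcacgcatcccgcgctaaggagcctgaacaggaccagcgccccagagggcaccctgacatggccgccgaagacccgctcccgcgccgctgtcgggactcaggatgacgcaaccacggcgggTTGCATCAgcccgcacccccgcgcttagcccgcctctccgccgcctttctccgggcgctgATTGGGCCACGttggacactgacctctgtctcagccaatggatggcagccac
Creld2 (chr15:88819396-88819645, plus strand): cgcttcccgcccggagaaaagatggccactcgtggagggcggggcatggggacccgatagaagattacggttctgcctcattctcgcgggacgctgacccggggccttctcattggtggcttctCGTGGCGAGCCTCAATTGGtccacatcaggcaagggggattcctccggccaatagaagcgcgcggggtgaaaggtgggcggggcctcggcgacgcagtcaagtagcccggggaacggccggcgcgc
Derl3 (chr10:75893148-75893397, plus strand): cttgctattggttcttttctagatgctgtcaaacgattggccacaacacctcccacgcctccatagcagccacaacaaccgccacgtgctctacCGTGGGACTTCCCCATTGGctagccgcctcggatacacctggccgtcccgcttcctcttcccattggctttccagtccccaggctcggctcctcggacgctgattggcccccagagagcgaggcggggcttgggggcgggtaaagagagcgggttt
Ero1b (chr13:12565633-12565882, plus strand): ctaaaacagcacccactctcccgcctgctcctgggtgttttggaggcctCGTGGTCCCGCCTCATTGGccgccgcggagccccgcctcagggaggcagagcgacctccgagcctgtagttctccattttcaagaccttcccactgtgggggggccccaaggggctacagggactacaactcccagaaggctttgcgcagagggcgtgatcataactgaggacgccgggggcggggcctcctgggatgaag
In Hspa5 the ERSE lay at bases -65 to -47 from the start site. Its reverse complement lay at -126 to -108 in Creld2, -156 to -138 in Derl3 and -201 to -183 in Ero1b. Herpud1 held ERSE-II at -52 to -42 and the reverse complement of the amino acid response element at -112 to -105. For Hspa5 and Ero1b the start of the gene in GENCODE lies inside the printed window. For Herpud1 and Derl3 it lies shortly after the printed window. The distances are from the RefSeq start sites and would shift with the GENCODE starts. A match describes the letters in the window and was not tested as a binding site.

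Library totals were 144.3 to 166.2 M counts in WT, 109.6 to 141.5 M in hIAPP and 127.6 to 157.5 M in rIAPP. Insulin transcripts made up 9.49% ± 0.436 of counts in WT, 7.64% ± 1.88 in hIAPP and 5.12% ± 0.72 in rIAPP (SD, n = 6 each). Markers of exocrine acinar cells took 0.252% ± 0.134 of counts in WT, 1.07% ± 0.774 in hIAPP and 1.32% ± 0.695 in rIAPP. Both transgenic groups had a larger acinar share than WT (exact two-sided permutation test of 6 against 6 libraries, adjusted p over 12 tests = 0.00742 for hIAPP and 0.00432 for rIAPP), and hIAPP and rIAPP were not distinguished (adjusted p = 0.578). The libraries hIAPP 5 and hIAPP 6 stood apart, with the largest acinar shares of their group (1.49% and 2.42%) and the smallest insulin shares (4.71% and 6.05%). In bulk RNA, fewer cells of a type and less RNA per cell cannot be told apart.

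Levels are given as CPM, counts relative to a TMM-adjusted library size, and means are given with the SD over the 6 libraries of a group. Per kilobase of exon, Ero1b had the highest WT level of all members (323 CPM per kb), followed by Calr (267), P4hb (250.2), Hsp90b1 (212) and Hspa5 (189). The lowest levels per kilobase were those of Derl2 (7.42), Txndc11 (3.44), Syvn1 (3.16) and Derl3 (1.55). The abundant end of the list was thus chaperones and disulfide enzymes, and the scarce end was mostly membrane proteins of degradation. The coefficient of variation between mice of a group was 2.18% to 18.3% for the lumenal chaperones. It reached 43.2% for Ero1b in rIAPP, 28.6% for Ern1 in hIAPP and 24.2% for Derl3 in hIAPP.

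The members that were higher in human IAPP islets than in WT were mostly degradation genes. Herpud1, Sel1l, Edem1, Edem2, Derl1 and Derl3 were higher, as were the sensor gene Ern1 and the cofactor Creld2, and no member was lower. The main lumenal chaperones Hspa5 and Hsp90b1 and the transcription factor gene Xbp1 were not called. In total, 8 of 35 members were called at an edgeR adjusted p under 0.05, against 15.8% of all genes tested. All 8 were higher, against 8.31% of all genes, and 0 were lower, against 7.53%. By role, the calls were 6 of 11 degradation genes, 1 of 5 sensors and transducers, 1 of 9 lumenal chaperones and cofactors, 0 of 8 disulfide enzymes and 0 of 2 lectin chaperones. Of the 6 degradation calls, those of Herpud1 and Derl3 were kept with the acinar covariate described below. Of 34 degradation genes outside the member list, 1 was called. The median log2 fold change was 0.25 over the degradation genes, 0.04 over all members and -0.01 over all genes tested. Scaling to library totals alone, which took the median of all genes from -0.01 to 0.11, gave 13 higher and 0 lower. DESeq2 gave 11 higher and 0 lower, as did a filter of at least 1 CPM in 6 libraries. Both added Sdf2l1, P4hb and Os9, which were also among those added with library totals alone.

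**Figure D1:**
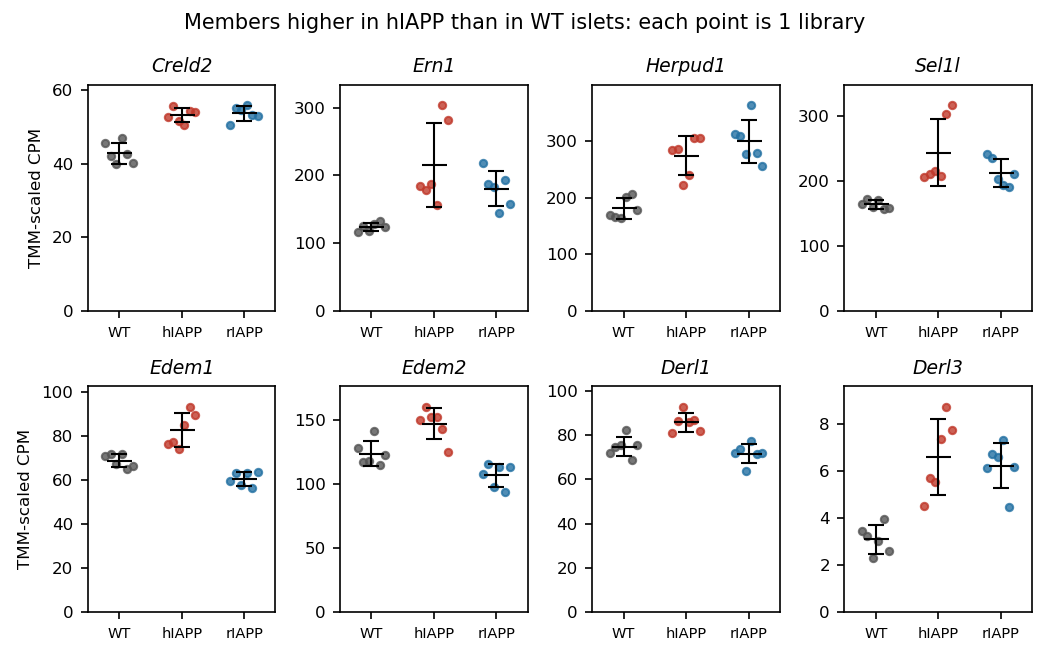
Level in TMM-scaled CPM (vertical axes, starting at 0) of the 8 members called higher in hIAPP than in WT islets; each point is 1 library, horizontal bars are means and error bars are 1 SD (n = 6). Creld2, Ern1, Herpud1, Sel1l, Edem1 and Derl3 show no overlap between hIAPP and WT, Edem2 and Derl1 overlap, and the rIAPP libraries lie below every hIAPP library for Edem1, Edem2 and Derl1.

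Rodent IAPP islets differed from WT in both directions. The chaperones and cofactors Hsp90b1, Dnajc3, Sdf2l1 and Creld2 and the isomerases Pdia4, P4hb and Txndc5 were higher, as were the sensors Ern1 and Eif2ak3 and the degradation genes Herpud1, Sel1l, Derl3 and Os9. The disulfide oxidases Ero1a and Ero1b, the ER membrane protein gene Wfs1 and the degradation genes Edem1, Edem2 and Derl2 were lower. Of 35 members, 19 were called, against 26.8% of all genes tested. The 13 higher stood against 14.1% of all genes, and the 6 lower against 12.6%. By role, 4 of 9 lumenal chaperones and cofactors were higher, 0 of 2 lectin chaperones were called, and 3 of 8 disulfide enzymes were higher and 2 lower. Of the 5 sensors and transducers 2 were higher and 1 lower, and of the 11 degradation genes 4 were higher and 3 lower. The median log2 fold change was 0.12 over the members and -0.01 over all genes tested. With library totals alone the split was 21 higher and 3 lower, and the calls of Wfs1, Edem1 and Edem2 were lost. This comparison used the same 6 WT libraries as that of hIAPP.

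The direct comparison of the transgenes showed higher Ero1a, Ero1b, Atf6, Wfs1, Edem1, Edem2, Derl1 and Derl2 in hIAPP. Hsp90b1, Dnajc3, Pdia4, P4hb, Txndc5 and Eif2ak3 were lower in hIAPP than in rIAPP. These were 14 of 35 members, against 27.6% of all genes tested. The 8 higher stood against 13.5% of all genes, and the 6 lower against 14.1%. By role, 4 of 11 degradation genes were higher and 0 lower, and 2 of 9 lumenal chaperones and cofactors were lower and 0 higher. The disulfide enzymes were split, with both oxidases higher and 3 isomerases lower. Creld2, Ern1, Herpud1, Sel1l and Derl3, higher than WT in both transgenic groups, were not called between them. No call was made in any of the comparisons for 14 members, Hspa5, Hyou1, Dnajb9, Dnajb11, Manf, Calr, Canx, Pdia3, Pdia6, Txndc11, Xbp1, Syvn1, Edem3 and Selenos.

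**Figure D2:**
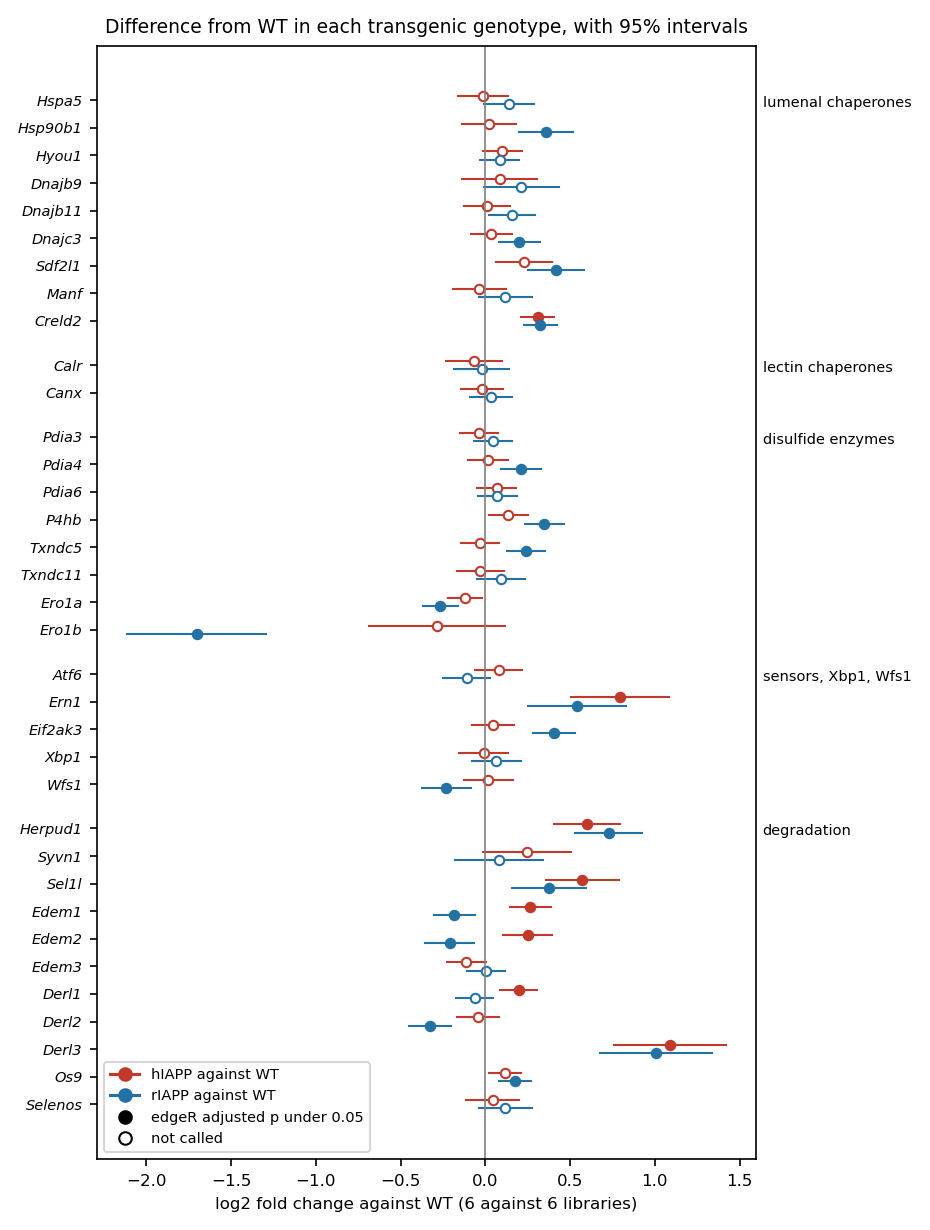
Log2 fold change of each of the 35 members (rows, grouped by role) in hIAPP against WT and in rIAPP against WT, with 95% intervals from the edgeR fit (6 against 6 libraries); filled points have an edgeR adjusted p under 0.05. Both sets of points share the WT libraries; the hIAPP calls lie mostly among the degradation genes, whereas Ero1b in rIAPP is the farthest from 0 at -1.70.

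Among the sensors, Ern1 (chr11:106394650-106487852, GENCODE on GRCm38), which encodes the kinase and endoribonuclease IRE1α, had the largest difference. Its level was 116 to 133 CPM in WT (median 124, mean 124 ± 6.31), 156 to 304 in hIAPP (median 185, mean 215 ± 61.6) and 144 to 218 in rIAPP (median 185, mean 180.3 ± 26.1). Every transgenic library lay above every WT library, and hIAPP 5 and hIAPP 6, at 304 and 282 CPM, lay above the other hIAPP libraries, which were at 156 to 187. Ern1 was 1.74-fold higher in hIAPP than in WT (log2 fold change 0.80 ± 0.14 SE, edgeR adjusted p = 0.000559) and 1.46-fold higher in rIAPP (0.54 ± 0.14, edgeR adjusted p = 0.00542). Without hIAPP 5 and hIAPP 6 the log2 fold change in hIAPP was 0.51 (edgeR adjusted p = 0.00162). With the mean log2 level of acinar markers as a covariate neither call held, at 0.54 in hIAPP (edgeR adjusted p = 0.0913) and 0.24 in rIAPP (edgeR adjusted p = 0.532). The difference between hIAPP and rIAPP was 0.25 ± 0.14 on the log2 scale (edgeR adjusted p = 0.186).

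Eif2ak3 (chr6:70844515-70905245) encodes PERK, the kinase that slows translation by phosphorylating eIF2α. Its level was 52.2 to 60.1 CPM in WT (median 59.5, mean 57.7 ± 3.26), 51.2 to 68.1 in hIAPP (median 58.8, mean 59.5 ± 5.90) and 71.8 to 79.6 in rIAPP (median 77.1, mean 76.4 ± 2.75). The rIAPP libraries lay above all libraries of both other groups, which overlapped each other. Against WT the log2 fold change was 0.41 ± 0.06 in rIAPP (edgeR adjusted p = 2.6e-05) and 0.04 ± 0.06 in hIAPP (edgeR adjusted p = 0.697). In hIAPP against rIAPP the log2 fold change was -0.36 ± 0.06 (edgeR adjusted p = 9.99e-05). A predicted gene on the other strand overlaps 8.0% of its exon bases, and the strand setting of the counting is not given in the sources used here.

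Atf6 (chr1:170704674-170867771), the sensor that is cut in the Golgi to release a transcription factor, had 125 to 149 CPM in WT (median 129, mean 135 ± 11.2), 132 to 154 in hIAPP (median 142, mean 142 ± 7.23) and 109.5 to 139.7 in rIAPP (median 126, mean 125 ± 12.5). The groups overlapped in every comparison. Neither transgenic group was called against WT (edgeR adjusted p = 0.497 and 0.256), and hIAPP was higher than rIAPP, with a log2 fold change of 0.19 ± 0.07 (edgeR adjusted p = 0.0408). That call was lost in 11 of 25 alternatives. Among them were the fits without any 1 of hIAPP 2, 3, 5 or 6 or rIAPP 3, 4 or 5 (edgeR adjusted p = 0.0607 to 0.106, log2 fold change 0.15 to 0.19).

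Xbp1 (chr11:5520659-5525893) encodes the transcription factor whose mRNA IRE1α splices, and its counts pool the spliced and unspliced forms. It had 157 to 189.6 CPM in WT (median 168, mean 169.7 ± 11.1), 149 to 179.7 in hIAPP (median 171, mean 169 ± 11.6) and 147 to 196 in rIAPP (median 181, mean 178 ± 17.9). The 3 groups overlapped. The difference between hIAPP and WT was -0.01 on the log2 scale, with a 95% interval of -0.15 to 0.13 (edgeR adjusted p = 0.948), and that between rIAPP and WT was 0.07 (edgeR adjusted p = 0.544).

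Wfs1 (chr5:36966104-36989205) encodes wolframin, an ER membrane protein lost in Wolfram syndrome. Its level was 39.8 to 51.8 CPM in WT (median 47.3, mean 46.5 ± 4.70), 43.7 to 50.1 in hIAPP (median 47.8, mean 47.1 ± 2.74) and 36.8 to 45.4 in rIAPP (median 38.1, mean 39.7 ± 3.65). Most rIAPP libraries lay low, with overlap against both other groups. It was lower in rIAPP than in WT (-0.23 ± 0.07 log2, edgeR adjusted p = 0.0175), a call lost in 5 of 24 alternatives. Without any 1 of WT 1, rIAPP 5 or rIAPP 6 it was -0.20 to -0.21 (edgeR adjusted p = 0.0507 to 0.0537). Wfs1 was higher in hIAPP than in rIAPP (0.25 ± 0.07 log2, edgeR adjusted p = 0.0112), and this call was lost without hIAPP 5 and hIAPP 6 (0.22, edgeR adjusted p = 0.0565).

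**Figure D3:**
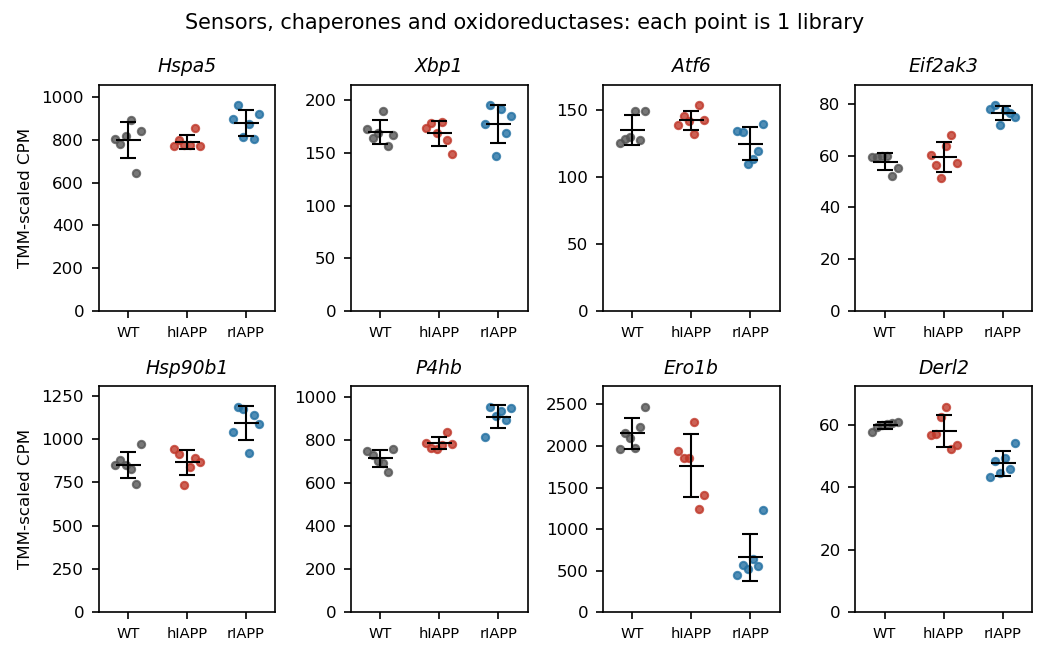
Level in TMM-scaled CPM (vertical axes, starting at 0) of Hspa5, Xbp1, Atf6, Eif2ak3, Hsp90b1, P4hb, Ero1b and Derl2; each point is 1 library, horizontal bars are means and error bars are 1 SD (n = 6). Hspa5 and Xbp1 overlap between all groups, Eif2ak3 is highest in every rIAPP library, and Ero1b is lowest in every rIAPP library.

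Hspa5 (chr2:34771970-34777547), which encodes BiP, the HSP70 chaperone of the ER and the usual readout of the unfolded protein response, was not called in any comparison. Its level was 647 to 895 CPM in WT (median 812, mean 799 ± 83.9), 769 to 856 in hIAPP (median 775, mean 791 ± 33.9) and 807 to 963 in rIAPP (median 886, mean 880.0 ± 61.3). The hIAPP libraries all lay within the WT range, and the highest WT library lay above all but 3 rIAPP libraries. The low end of the WT range was WT 5 alone, at 647 CPM, and the next WT library was at 782. The lowest hIAPP library was at 769. The difference between hIAPP and WT was -0.01 ± 0.07 on the log2 scale, with a 95% interval of -0.16 to 0.13 (edgeR adjusted p = 0.933). That between rIAPP and WT was 0.14 ± 0.07 (edgeR adjusted p = 0.157). In hIAPP against rIAPP it was -0.15 ± 0.07, with a 95% interval of -0.30 to -0.007 (edgeR adjusted p = 0.114). The hIAPP 5 library, at 856 CPM, was the only hIAPP library within the rIAPP range.

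Hsp90b1 (chr10:86690209-86705509) encodes GRP94, the HSP90 chaperone of the ER. It had 742 to 973 CPM in WT (median 851, mean 853 ± 75.1), 736 to 939.9 in hIAPP (median 881, mean 865 ± 72.0) and 921 to 1188 in rIAPP (median 1114, mean 1092 ± 99.6). The rIAPP libraries lay high, and all but 1 of them lay above every WT library. Against WT the log2 fold change was 0.36 ± 0.08 in rIAPP (edgeR adjusted p = 0.00139) and 0.02 ± 0.08 in hIAPP (edgeR adjusted p = 0.904), and hIAPP was lower than rIAPP by -0.34 ± 0.08 (edgeR adjusted p = 0.00232). Exons of 1 other gene overlap 10.3% of its exon bases, the largest overlap with a single gene among members, and exons of further genes overlap smaller parts.

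Dnajc3 (chr14:118937976-118981697) encodes p58IPK, a lumenal cochaperone of BiP. Its level was 265 to 334 CPM in WT (median 309, mean 307 ± 23.4), 296 to 335 in hIAPP (median 311, mean 315 ± 13.8) and 331 to 381 in rIAPP (median 352, mean 353 ± 19.0). It was higher in rIAPP than in WT (0.20 ± 0.06 log2, edgeR adjusted p = 0.0124), with overlap of 1 WT library. It was lower in hIAPP than in rIAPP (-0.17 ± 0.06, edgeR adjusted p = 0.0363), a call lost in 11 of 25 alternatives. Without any 1 of hIAPP 3, 4, 5 or 6 or rIAPP 2, 3 or 6 it was -0.14 to -0.16 (edgeR adjusted p = 0.0519 to 0.0937).

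Creld2 (chr15:88819646-88826683), a disulfide isomerase-like cofactor of the ER lumen, was the lumenal member called in hIAPP. It had 39.8 to 46.8 CPM in WT (median 42.3, mean 42.9 ± 2.85), 50.4 to 55.5 in hIAPP (median 53.4, mean 53.1 ± 1.86) and 50.4 to 55.9 in rIAPP (median 53.8, mean 53.6 ± 1.949). Every transgenic library lay above every WT library. The log2 fold change against WT was 0.31 ± 0.05 in hIAPP (edgeR adjusted p = 0.000145) and 0.32 ± 0.05 in rIAPP (edgeR adjusted p = 2.07e-05), and the difference between them was -0.01, with a 95% interval of -0.11 to 0.08.

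Ero1b (chr13:12565874-12611396) had the largest difference of all members. It encodes ERO1β, the oxidase that recharges protein disulfide isomerase and is most abundant in insulin-making cells. Its level was 1969 to 2473 CPM in WT (median 2129, mean 2151 ± 188), 1246 to 2290.3 in hIAPP (median 1852, mean 1764 ± 379) and 452 to 1229.6 in rIAPP (median 559.7, mean 660.4 ± 285). No rIAPP library reached the level of any other library. The rIAPP 6 library, at 1229.6 CPM, lay far above the other rIAPP libraries, of which the highest was at 639. Ero1b in rIAPP was 0.307 of its WT level (log2 fold change -1.70 ± 0.20, edgeR adjusted p = 1.35e-06), and in hIAPP it was 2.67 times the rIAPP level (1.42 ± 0.20, edgeR adjusted p = 1.3e-05). The hIAPP libraries overlapped WT, with hIAPP 5 and hIAPP 6 lowest at 1246 and 1409, and the difference of -0.29 ± 0.19 was not called (edgeR adjusted p = 0.359).

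Ero1a (chr14:45283087-45318771) encodes the broadly expressed oxidase ERO1α. Its level was 60.0 to 69.9 CPM in WT (median 65.2, mean 65.0 ± 3.32), 58.1 to 63.5 in hIAPP (median 59.3, mean 59.8 ± 1.98) and 50.8 to 61.0 in rIAPP (median 53.1, mean 54.1 ± 3.61). The order of the medians was that of Ero1b, with a smaller difference between groups and with overlap of all 3. It was lower in rIAPP than in WT (-0.26 ± 0.05 log2, edgeR adjusted p = 3e-04). It was higher in hIAPP than in rIAPP (0.15 ± 0.05, edgeR adjusted p = 0.0289), a call lost in 7 of 25 alternatives. Without any 1 of hIAPP 2 or rIAPP 1, 3, 4 or 5 it was 0.13 to 0.14 (edgeR adjusted p = 0.0521 to 0.0714).

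The isomerases P4hb, Txndc5 and Pdia4 were higher in rIAPP than in WT, whereas Pdia3, Pdia6 and Txndc11 were not called. P4hb (chr11:120560298-120573253), the classical protein disulfide isomerase, had 652 to 758 CPM in WT (median 719, mean 716 ± 39.5), 761 to 838 in hIAPP (median 782, mean 786 ± 27.8) and 814 to 957 in rIAPP (median 925, mean 911 ± 52.8). All transgenic libraries lay above all WT libraries. The difference from WT was called in rIAPP (0.35 ± 0.05 log2, edgeR adjusted p = 6.32e-05) and not in hIAPP (0.14 ± 0.05, edgeR adjusted p = 0.104), and hIAPP was lower than rIAPP (-0.21 ± 0.05, edgeR adjusted p = 0.00615). P4hb was called higher in hIAPP than in WT with DESeq2, with library totals alone and with a filter of at least 1 CPM in 6 libraries.

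Txndc5 (chr13:38500079-38528824), a thioredoxin-domain isomerase, had 126 to 154 CPM in WT (median 144, mean 143 ± 9.39), 131 to 149.75 in hIAPP (median 138, mean 139.8 ± 7.998) and 162 to 186 in rIAPP (median 167, mean 169 ± 8.92). Every rIAPP library lay above every other library. Its log2 fold change was 0.24 ± 0.05 in rIAPP against WT (edgeR adjusted p = 0.00224) and -0.27 ± 0.05 in hIAPP against rIAPP (edgeR adjusted p = 0.000789). Pdia4 (chr6:47796141-47813430), the isomerase ERp72, had 174 to 213 CPM in WT (median 187, mean 190.3 ± 14.0), 180.2 to 211 in hIAPP (median 189, mean 192 ± 11.4) and 209 to 238 in rIAPP (median 218, mean 219.9 ± 10.3). Its rIAPP libraries lay high with a narrow overlap. Pdia4 was higher in rIAPP than in WT (0.21 ± 0.06 log2, edgeR adjusted p = 0.00832) and lower in hIAPP than in rIAPP (-0.19 ± 0.06, edgeR adjusted p = 0.0138), and the latter call was lost without hIAPP 5 and hIAPP 6 (edgeR adjusted p = 0.0514).

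Among the degradation genes, Herpud1 (chr8:94386438-94395377) was higher in both transgenic groups. It encodes a stress-induced membrane protein of the degradation complex. Its level was 164 to 206 CPM in WT (median 174, mean 181 ± 18.2), 223 to 305 in hIAPP (median 285, mean 274 ± 34.4) and 256 to 363 in rIAPP (median 294, mean 299 ± 37.9). Every transgenic library lay above every WT library. The fold over WT was 1.51 in hIAPP (log2 0.60 ± 0.09 SE, edgeR adjusted p = 0.000216) and 1.66 in rIAPP (0.73 ± 0.09, edgeR adjusted p = 5.62e-06), and the transgenic groups were not distinguished (-0.13 ± 0.09, edgeR adjusted p = 0.339).

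Derl3 (chr10:75893413-75895941), a derlin of the retrotranslocation machinery found mainly in secretory tissues, was the scarcest member. It had 2.29 to 3.97 CPM in WT (median 3.12, mean 3.09 ± 0.601), 4.51 to 8.72 in hIAPP (median 6.51, mean 6.58 ± 1.59) and 4.46 to 7.28 in rIAPP (median 6.36, mean 6.22 ± 0.958). No transgenic library overlapped WT. The fold over WT was 2.13 in hIAPP (log2 1.09 ± 0.16 SE, edgeR adjusted p = 0.000104) and 2.01 in rIAPP (1.01 ± 0.16, edgeR adjusted p = 6.11e-05). Its mean count of 459 in WT was the lowest of all members.

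Sel1l (chr12:91806043-91849157), the scaffold of the HRD1 ligase, had 157 to 173 CPM in WT (median 162, mean 164 ± 6.47), 207 to 317 in hIAPP (median 214, mean 244 ± 51.8) and 191 to 242 in rIAPP (median 207, mean 213 ± 21.4). All transgenic libraries lay above all WT libraries, and hIAPP 5 and hIAPP 6, at 304 and 317, lay far above the other hIAPP libraries at 207 to 216. The log2 fold change over WT was 0.57 ± 0.10 in hIAPP (edgeR adjusted p = 0.000822) and 0.38 ± 0.10 in rIAPP (edgeR adjusted p = 0.00952). Without hIAPP 5 and hIAPP 6 the value in hIAPP was 0.37 (edgeR adjusted p = 0.00221). With the acinar covariate Sel1l was called in neither group, at 0.26 in hIAPP (edgeR adjusted p = 0.178) and -0.01 in rIAPP (edgeR adjusted p = 0.972). Its partner Syvn1, the ligase itself, was not called in any comparison.

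Edem1 and Edem2 were the members that were higher in hIAPP and lower in rIAPP than in WT. Both encode lectin-like proteins that act in trimming mannose from misfolded glycoproteins before degradation. Edem1 (chr6:108828641-108859356) had 64.8 to 71.8 CPM in WT (median 69.0, mean 68.8 ± 3.02), 74.3 to 93.3 in hIAPP (median 81.3, mean 82.7 ± 7.84) and 56.4 to 63.8 in rIAPP (median 61.3, mean 60.6 ± 3.21). The 3 groups did not overlap. Its log2 fold change against WT was 0.27 ± 0.06 in hIAPP (edgeR adjusted p = 0.00407) and -0.18 ± 0.06 in rIAPP (edgeR adjusted p = 0.0241), and hIAPP exceeded rIAPP by 0.45 ± 0.06 (edgeR adjusted p = 6.66e-06).

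Edem2 (chr2:155701677-155729475) had 115 to 141 CPM in WT (median 121, mean 124 ± 9.73), 125 to 161 in hIAPP (median 151, mean 147 ± 12.3) and 93.8 to 116 in rIAPP (median 111, mean 107 ± 9.15). Both transgenic groups overlapped WT and not each other. Edem2 was higher in hIAPP than in WT by 0.25 ± 0.07 (edgeR adjusted p = 0.0177), lower in rIAPP by -0.21 ± 0.07 (edgeR adjusted p = 0.0273) and higher in hIAPP than in rIAPP by 0.46 ± 0.07 (edgeR adjusted p = 3.6e-05). The calls in rIAPP against WT were lost in 7 of 24 alternatives for Edem1 and 8 of 24 for Edem2. Without any 1 of WT 1, WT 2, WT 4, rIAPP 3 or rIAPP 5, Edem1 was at -0.15 to -0.17 (edgeR adjusted p = 0.0504 to 0.0844). Without any 1 of WT 1, WT 4, rIAPP 3 or rIAPP 5, Edem2 was at -0.16 to -0.20 (edgeR adjusted p = 0.0571 to 0.096). Edem3 was not called in the reported fit, but without WT 5 it was called lower in hIAPP than in WT.

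The other derlins differed from Derl3. Derl1 (chr15:57869502-57892448), a membrane protein of the retrotranslocation channel, had 68.9 to 82.1 CPM in WT (median 74.9, mean 74.8 ± 4.41), 80.8 to 92.8 in hIAPP (median 86.1, mean 85.7 ± 4.26) and 63.8 to 77.2 in rIAPP (median 71.9, mean 71.6 ± 4.38). The hIAPP libraries lay above all rIAPP libraries and all but 1 WT library. Derl1 was higher in hIAPP than in WT (0.20 ± 0.05 log2, edgeR adjusted p = 0.0138) and than in rIAPP (0.26 ± 0.05, edgeR adjusted p = 0.000775). Derl2 (chr11:71007164-71019841) had 57.7 to 60.9 CPM in WT (median 60.0, mean 59.7 ± 1.15), 52.2 to 65.7 in hIAPP (median 56.8, mean 57.9 ± 5.23) and 43.2 to 54.1 in rIAPP (median 47.2, mean 47.6 ± 3.93). Its rIAPP libraries lay below all WT libraries. Derl2 was lower in rIAPP than in WT (-0.33 ± 0.06, edgeR adjusted p = 0.000306) and higher in hIAPP than in rIAPP (0.28 ± 0.06, edgeR adjusted p = 0.00125).

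**Figure D4:**
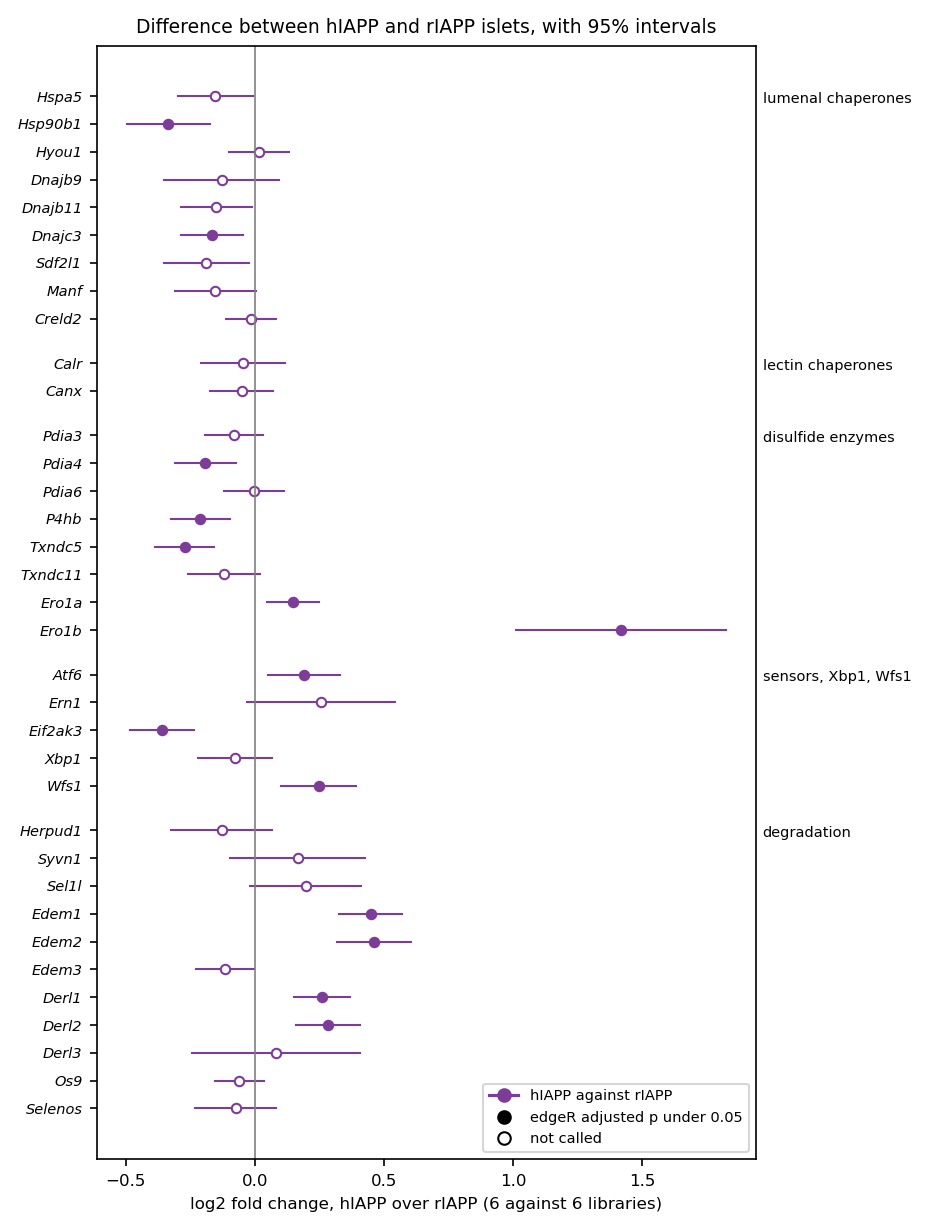
Log2 fold change of hIAPP over rIAPP for each of the 35 members (rows, grouped by role), with 95% intervals from the edgeR fit (6 against 6 libraries); filled points have an edgeR adjusted p under 0.05. Ero1b lies farthest to the right at 1.42, Edem1, Edem2, Derl1 and Derl2 lie to the right of 0, and Hsp90b1, Eif2ak3 and the isomerases Pdia4, P4hb and Txndc5 lie to the left.

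The other 14 members ranged in WT from 15.4 CPM for Syvn1 to 768 for Calr, the calcium-binding lectin chaperone calreticulin. In the reported fit of hIAPP against WT none of them was called, with log2 fold changes from -0.11 for Edem3 to 0.25 for Syvn1. Sdf2l1 was at 0.23 (edgeR adjusted p = 0.0563), and it was called higher in several of the alternative fits. In rIAPP against WT, Sdf2l1, a cofactor of BiP and its cochaperones, was higher (0.42 ± 0.08, edgeR adjusted p = 0.000426), as was Os9, a lectin that hands glycoproteins to the HRD1 complex (0.18 ± 0.05, edgeR adjusted p = 0.00576). The remaining 12 lay between -0.02 for Calr and 0.21 for Dnajb9. Between hIAPP and rIAPP the 14 lay between -0.19 for Sdf2l1 and 0.17 for Syvn1, with none called.

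Libraries without any overlap between the groups were found for 7 members in hIAPP against WT, all higher, against 6.63% of all genes tested. For rIAPP against WT they were found for 10 members higher and 3 lower, against 14.9% of all genes tested, and for hIAPP against rIAPP for 4 higher and 2 lower, against 13.4%. Members with and without an ERSE are given side by side. In hIAPP against WT, 2 of 10 were higher, with a median log2 fold change of 0.03, beside 5 of 21 and 0.04 for the members with a window and no ERSE, against 8.31% of all genes tested. In rIAPP against WT, 4 of 10 were higher and 1 lower, beside 9 and 5 of 21, against 14.1% and 12.6% of all genes tested.

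Markers of other cells moved with these results. The summed level of 34 acinar markers was 1203 to 5105 CPM in WT, 3281 to 23273 in hIAPP and 5432 to 23941 in rIAPP, led by Amy2a5, Pnlip and Ctrb1, and 29 of the 33 tested were higher in hIAPP than in WT, against 31 in rIAPP. The 13 macrophage markers summed to 145 to 168.5 CPM in WT, 384 to 764 in hIAPP and 98.4 to 115 in rIAPP. The 12 stellate and mesenchymal markers summed to 829.6 to 1172 CPM, 1117 to 2045 and 1442 to 2323 in the same order, and the 12 endothelial markers to 735 to 831, 657 to 757 and 914 to 1024. Plasma cell markers stayed between 11.6 and 15.6 CPM in all groups, and Tnfrsf17 was at 0 in every WT and hIAPP library. The 10 ductal markers summed to 416 to 483 CPM in WT, 374 to 502 in hIAPP and 464 to 567 in rIAPP. These sums were led by Krt7 in every group, and single ductal markers went both ways. Of the 10, 4 were lower in hIAPP than in WT (Krt19, Sox9, Cftr and Spp1) and 1 was higher (Krt18). For rIAPP against WT, 3 ductal markers were higher and 2 lower. The 10 beta cell markers summed to 126590 to 158600 CPM in WT, 68720 to 126460 in hIAPP and 73998 to 101940 in rIAPP. They were led by Ins2, Ins1 and Iapp in WT and hIAPP, and by Iapp, Ins2 and Ins1 in rIAPP. Mean Iapp was 39144 CPM in rIAPP and 34206 in WT, and mean Ins2 was 30948 and 56677. In rIAPP against WT the median log2 fold change of the 10 markers was -1.22, and the highest was 0.19, for Iapp. Whether the Iapp counts in rIAPP include reads of the rodent transgene was not tested, so the rIAPP sum may not reflect beta cells alone. Against WT, 7 of the 10 were lower in hIAPP (7.53% of all genes tested) and 9 in rIAPP (12.6%), with 0 higher. The 7 markers of other endocrine cells summed to 20913 to 31752, 21610 to 28967 and 21323 to 35256 in the same order. Hormone transcripts led the islet lists in every group. For the macrophage, stellate, endothelial, ductal and beta cell markers, their part in the member results was not tested.

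The acinar share was entered in the fit. With the mean log2 level of the acinar markers as a covariate, 3 of the 8 calls in hIAPP against WT were kept, for Creld2 (0.30, edgeR adjusted p = 0.0128), Herpud1 (0.51, edgeR adjusted p = 0.0248) and Derl3 (0.83, edgeR adjusted p = 0.0361). Ern1 (0.54, edgeR adjusted p = 0.0913), Sel1l (0.26, edgeR adjusted p = 0.178), Edem1 (0.12, edgeR adjusted p = 0.367), Edem2 (0.21, edgeR adjusted p = 0.242) and Derl1 (0.12, edgeR adjusted p = 0.359) were not called. In rIAPP against WT 10 of 19 calls were kept, among them Ero1b at -1.49 (edgeR adjusted p = 0.00272), Herpud1 at 0.61 and Eif2ak3 at 0.31. The 9 lost were Hsp90b1 (0.34, edgeR adjusted p = 0.0678), Dnajc3 (0.16, 0.313), Pdia4 (0.18, 0.228), Txndc5 (0.24, 0.0904), Ern1 (0.24, 0.532), Edem2 (-0.27, 0.136), Derl3 (0.69, 0.0757), Os9 (0.16, 0.172) and Sel1l, which went to -0.01 (0.972). Acinar level and genotype go together in these samples and cannot be fully told apart, and the covariate also lowered the calls over all genes from 3208 to 827 in hIAPP against WT and from 5417 to 2196 in rIAPP against WT. In hIAPP against rIAPP, where the acinar shares were not distinguished, 13 of 14 calls were kept, Dnajc3 was lost (edgeR adjusted p = 0.0573), and Sel1l was gained as higher in hIAPP. Without hIAPP 5 and hIAPP 6, the 2 hIAPP libraries with most acinar RNA, all 8 members stayed called against WT. The remaining hIAPP libraries still had acinar shares of 0.313% to 0.973%, beside 0.116% to 0.494% in WT, so that fit does not remove the acinar difference.

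**Figure D5:**
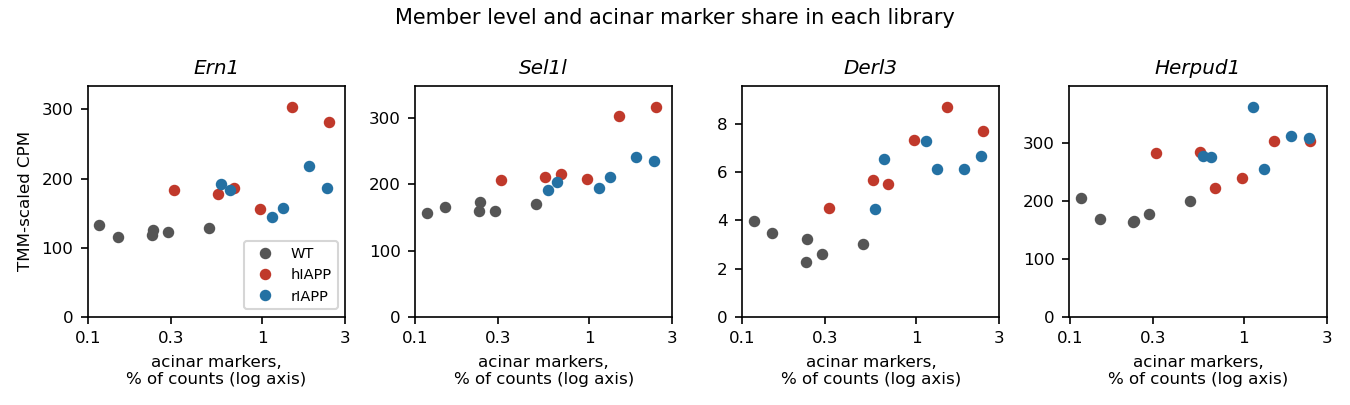
Level of Ern1, Sel1l, Derl3 and Herpud1 in TMM-scaled CPM (vertical axes, starting at 0) against the share of counts from acinar markers (horizontal log axis, percent) in each of the 18 libraries. For Ern1 and Sel1l the highest points are hIAPP 5 and hIAPP 6, with acinar shares of 1.49% and 2.42%, and the WT libraries lie at shares of 0.116% to 0.494%.

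Genes of the same pathways outside the member list gave the following counts. Of all genes tested, 8.31% were higher and 7.53% lower in hIAPP against WT. The shares in rIAPP against WT were 14.1% and 12.6%. No values with the acinar covariate are given for these lists. Of 34 other degradation genes tested, 1 was called in hIAPP against WT, namely Aup1, a membrane protein that works with HRD1, which was higher (0.24 ± 0.05, edgeR adjusted p = 0.00228). In rIAPP against WT 1 was higher and 4 lower. Of 22 other chaperones and folding enzymes of the ER lumen or membrane, 5 were higher and 0 lower in hIAPP, and 9 higher and 3 lower in rIAPP. The 4 with the smallest p in hIAPP were Dnajb12 (0.25), Creld1 (0.26), Prkcsh, the glucosidase II beta subunit (0.21), and Ppic (0.55). Of 17 genes on a list of other disulfide isomerases, further redox enzymes and related proteins, 5 were higher and 1 lower in hIAPP. In rIAPP 3 were higher and 2 lower. Pdia2, the isomerase of pancreatic exocrine cells, was higher by 1.84 ± 0.42 in hIAPP (edgeR adjusted p = 0.00535) and by 2.32 ± 0.43 in rIAPP (edgeR adjusted p = 0.000308). Qsox1 (0.29) and Erp29 (0.27) were higher and Tmx3 (-0.25) was lower in hIAPP. Of 21 other sensors, proteases and transducers, 4 were higher and 1 lower in hIAPP, with Mbtps2, the protease that cuts ATF6, at 0.29, Nfe2l1 at 0.19, Creb3l1 at 0.48 and Eif2s1, which encodes eIF2α, at -0.22.

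Most genes on a list for the PERK and ATF4 arm were called against WT. Of 24 tested, 18 were higher than WT and 0 lower in hIAPP, against 8.31% and 7.53% of all genes tested. The median log2 fold change was 0.81. In rIAPP 18 were higher and 1 lower, against 14.1% and 12.6%, with a median of 0.46. Between hIAPP and rIAPP 6 were higher in hIAPP and 0 lower, against 13.5% and 14.1%. No values with the acinar covariate are given for this list. The 4 with the smallest p in hIAPP against WT were Trib3, a pseudokinase induced by CHOP (3.02 ± 0.32, edgeR adjusted p = 2.48e-06), the stress protein gene Nupr1 (3.31 ± 0.35, edgeR adjusted p = 3.08e-06), Ddit3, which encodes CHOP (1.36 ± 0.17, edgeR adjusted p = 1.78e-05), and the cystine transporter gene Slc7a11 (2.19 ± 0.28, edgeR adjusted p = 2.78e-05). In rIAPP against WT the same genes were at 1.91, 2.57, 0.49 and 2.04, all called. Ddit3 was higher in hIAPP than in rIAPP (0.87 ± 0.17, edgeR adjusted p = 0.000489), and so was Trib3 (1.12 ± 0.29, edgeR adjusted p = 0.00681). The transcript of Eif2ak3, which encodes PERK, was called higher than WT in rIAPP and not in hIAPP. PERK activity was not measured, and whether PERK acted on the listed genes was not tested.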

How the data were processed

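RNA sequencing libraries (TruSeq after Ribo-Zero depletion, RIN 8.4 to 9.5) were made from islets of 18 mice, per the labels' protocols. The deposited table holds estimated counts per gene symbol, not normalised, and STAR and HTSeq, with the builds GRCm38 and mm10, stand in the submitters' processing notes with no version. The sources used here do not give the annotation, the strand setting or the step that left 39.2% of the values above 0 fractional. Values were rounded to whole numbers. Counts were fitted with edgeR 4.0.16 in R 4.3.3 (TMM, filterByExpr by genotype, quasi-likelihood, a mean for each genotype over all 18 libraries). Two-sided tests were used, with Benjamini-Hochberg adjustment over all 20244 genes tested, and a gene was called at an adjusted p under 0.05. Intervals are 95% intervals of the fit. Positions and exon lengths came from GENCODE M21 on GRCm38 and promoters from RefSeq on GRCm38.p6.

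The members, gene lists and alternatives were chosen with earlier results of these data known. Full values were set for members called in hIAPP against WT or against rIAPP and for Hspa5, Xbp1, Atf6, Ern1 and Eif2ak3, with counts and ranges for the others, and up to 4 called genes with the smallest p in hIAPP against WT for each further pathway list. Replicate numbers only name libraries in label order. All 45 pairs of libraries within a group differed beyond counting error (chi-square per degree of freedom 26.1 to 248). In simulated counts with the real means and library sizes, the fit was tested before use. Alternatives were DESeq2 1.42.0, other scalings, filters and thresholds, robust dispersions, a fit restricted to each pair of genotypes, leaving the 10 most abundant genes out, an acinar covariate and fits without single libraries or without hIAPP 5 and hIAPP 6.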

Additional observations from a re-analysis of the deposited data

Results flagged for a closer look

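Of 117 member and library measures tested by group, 9 had 1 library far from the other 5, where chance gives about 1 group in 20. Ero1b had 1229.6 CPM in rIAPP 6, beside a next value of 639. Ero1a was also highest in rIAPP 6, at 61.0 CPM beside 54.3. Txndc5 had 186 CPM in rIAPP 2, beside 168. The hIAPP 5 library was the highest of its group for Hspa5 (856 CPM beside 802), Dnajb9, a lumenal cochaperone (147 beside 111), and P4hb (838 beside 789). Sdf2l1 had 34.4 CPM in hIAPP 4, beside 30.1. Pdia3, an isomerase of glycoproteins, had 431 CPM in hIAPP 3, the lowest of its group, beside 461. Selenos, a selenoprotein of the degradation complex, had 52.0 CPM in WT 5, the lowest of its group, beside 66.9.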

How the results depend on the processing

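The calls were recomputed under 31 other settings. Of the members, with the acinar covariate 3 were called in hIAPP against WT (8 in the reported fit) and 10 in rIAPP against WT (19), with Sel1l in rIAPP at -0.0103. With library totals alone 13 members were called in hIAPP against WT, and over all genes the split of higher and lower was 3139 and 480 in that comparison (reported 1683 and 1525) and 4554 and 1404 in rIAPP against WT (reported 2860 and 2557), with the median of all genes moved to 0.11 and 0.10. At an adjusted p under 0.01, 9 members were called in hIAPP against rIAPP (14), and over all genes 1490, 3598 and 3617 were called in hIAPP against WT, rIAPP against WT and hIAPP against rIAPP, a smaller number by construction. Over all genes, the acinar covariate gave 827 and 2196 calls against WT in hIAPP and rIAPP, and leaving out hIAPP 5 and hIAPP 6 gave 1675 in hIAPP against WT. Beyond the construction of each alternative, the cause was not tested. Leaving out 1 library at a time gave 8 to 10 members in hIAPP against WT, 16 to 19 in rIAPP against WT and 11 to 14 in hIAPP against rIAPP, and 2377 to 3919, 4711 to 5612 and 4865 to 5718 genes. Creld2, Herpud1 and Derl3 in hIAPP against WT kept their call in all 25 alternatives. So did Hsp90b1, Txndc5, Eif2ak3, Ero1b, Edem1, Edem2, Derl1 and Derl2 in hIAPP against rIAPP. Hspa5 was called in 0 of 25 alternatives in hIAPP against WT and in 1 of 24 in rIAPP against WT. No paired analysis was possible because the number in each library's title differs from that of every other library and the labels tie no libraries together. The lowest mean count of a member was 459, for Derl3 in WT.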
